A study of Mus musculus with 10 samples.

Results

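Matrix metalloproteinases (MMP), ADAM and ADAMTS proteases and their tissue inhibitors (TIMP) were followed in cultured mouse lung fibroblasts. Members were all genes whose symbols are Mmp, Adam, Adamts or Timp followed by a number, with a closing letter where the family uses one, and the rule used no measured value. It found 65 of the 18193 genes tested: 18 MMP, 28 ADAM, 15 ADAMTS and 4 TIMP genes. Each gene was read by the probe set, out of those assigned to that gene alone, with the highest mean over the 10 arrays, and 30 of the 65 had more than 1 probe set, whose differences had 1 sign in 20 and both signs in 10. Levels are the log2 values of the deposited table, and differences are carcinoma-associated minus normal on the log2 scale.

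The 10 arrays held RNA of fibroblasts from normal lung (5 arrays) and of carcinoma-associated fibroblasts (CAF, 5 arrays), the fibroblasts that surround a tumour, both labelled as lung tissue of Mus musculus. Cells of both groups came out of mouse lungs and grew for 10 to 14 days in DMEM with 10% serum and antibiotics. They were then trypsinised, replated on 10 cm dishes and collected after a night, and the labels name no agent given to 1 group alone. Strain, genotype, age, sex and the tumour that gave the CAF are not given in the sources used here, nor is whether an array stands for 1 animal. Titles number the cultures as biological replicates; where they did not come from separate animals the p-values measure only the spread between these cultures.

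MMPs are secreted or membrane-bound zinc endopeptidases that cut collagens, proteoglycans and other matrix proteins, and most are made as inactive precursors that other proteases switch on. ADAMs are membrane proteins, some of which cut other surface proteins free, such as growth factor precursors, while others have lost the active site and serve in adhesion. ADAMTS proteases are secreted and bind the matrix, where they trim procollagens and cut large proteoglycans such as versican and aggrecan. TIMPs are small secreted proteins that block the active site of MMPs and, in the case of Timp3, of several ADAMs and ADAMTSs. Fibroblasts are a main source of these proteins in connective tissue, and macrophages and neutrophils store or secrete some of them.

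Median values per array were close, 6.76 to 6.79 on normal arrays and 6.73 to 6.74 on those of CAF, but every CAF median lay below every normal one. Upper quartiles went the other way: the lowest in CAF was 9.21 (replicate 2) and the highest in normal 9.12 (replicate 3). The SD over an array's values was at least 2.41 in CAF and at most 2.39 in normal (the same 2 arrays), so CAF values were spread more widely. After quantile normalisation, which gives all arrays the same spread, 26 members had a positive difference, against 23 without it. How much of the small difference of a single gene comes from this spread was not tested. All 10 fibroblast markers, among them Col1a1, Dcn and Pdgfra, lay above the median level of all genes (8.11), as the label calls for. All 12 macrophage markers lay above that median as well, and their mean per array ran from 9.52 to 12.99 in normal and from 10.45 to 12.97 in CAF cultures. The mean of the 7 neutrophil markers measured was 11.18 on normal replicate 3, between 6.60 and 7.47 on the other normal arrays and between 6.80 and 7.45 on CAF arrays. Normal replicate 3 was also the highest array for S100a8, S100a9, Elane, Mpo, Ngp and Camp taken singly, but not all of them were low elsewhere. S100a9, a neutrophil calcium-binding protein, had 14.29 there and 5.27 to 7.05 on the other 9 arrays. Its partner S100a8 had 14.18 there, 9.34, 9.26, 10.50 and 7.87 on normal replicates 1, 2, 4 and 5, and 11.62, 9.69, 12.08, 12.59 and 12.74 on CAF replicates 1 to 5, a difference of 1.51 ± 1.09 (adjusted p = 0.434). Camp, a granule peptide, had 12.88 on normal replicate 3, with 10.04 on CAF replicate 4 the next highest. All 6 mesothelial markers had negative differences, with list means per array of 6.01 to 10.76 in normal and 7.06 to 9.57 in CAF cultures. The mean of the 8 pericyte and smooth muscle markers, 4 of them above the median level, ran from 8.81 to 9.50 in normal and from 9.42 to 9.87 in CAF cultures, and the part of such cells in the results was not tested. Above that level lay 2 of the 10 epithelial and 2 of the 7 neutrophil markers and 0 of the 7 endothelial, 6 lymphocyte and 6 cartilage markers measured. In such cultures, fewer cells of a type and less RNA per cell cannot be told apart. The code that the labels give each normal array starts with vs for replicates 1 to 3 and with ls for replicates 4 and 5. That of each CAF array starts with ls. What the prefix stands for is not stated, and for many but not all members the difference is also given against each kind of normal array.

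A run of MMP genes lies side by side in the mouse genome, and the promoters of its members are shown first because the largest positive differences of the 65 members were those of genes in this run. In the RefSeq gene order of chromosome 9 (GRCm38.p6), 10 protein-coding Mmp genes follow each other with no other protein-coding gene between them: Mmp13, Mmp12, Mmp1b, Mmp3, Mmp1a, Mmp10, Mmp8, Mmp27, Mmp20 and Mmp7. All but Mmp27, not analysed here, are among the 65 members. AP-1, the transcription factor formed by the JUN and FOS families, is known to act on several MMP promoters through a site near the start of transcription. The 7-base AP-1 sequence TGAGTCA was searched on both strands (its reverse complement is TGACTCA) in RefSeq windows of 300 bases, 250 before and 50 after each start. Windows were found for 37 of the 65 members, and 9 of these 37 genes held the sequence. They were 7 of the 9 cluster genes (Mmp13, Mmp12, Mmp1b, Mmp3, Mmp1a, Mmp10 and Mmp7) and 2 of the other 28 members with a window (Adam19 and Adam1b). Of all genes with a RefSeq window, 5.95% held it, and of all windows 5.2%. A match is only a description of these letters, and the lack of one in the windows of Mmp8 and Mmp20 says nothing of the factor.

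The 120 bases before the annotated start of the 5 cluster genes with a mean above the median of all genes are given below 5′ to 3′ on the plus strand of GRCm38.p6, with the AP-1 sequence in capitals. Mmp12 has 2 annotated starts, and the one whose window holds the sequence is shown.
Mmp13, chr9:7272394-7272513: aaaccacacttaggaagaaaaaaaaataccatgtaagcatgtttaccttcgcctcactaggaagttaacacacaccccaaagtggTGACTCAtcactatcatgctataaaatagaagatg
Mmp12, chr9:7347254-7347373: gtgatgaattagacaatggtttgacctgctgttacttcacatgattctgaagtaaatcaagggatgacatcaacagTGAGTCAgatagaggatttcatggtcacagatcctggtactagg
Mmp3, chr9:7445702-7445821: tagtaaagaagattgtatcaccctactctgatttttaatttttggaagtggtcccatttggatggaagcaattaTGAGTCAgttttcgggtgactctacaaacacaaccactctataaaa
Mmp10, chr9:7502222-7502341: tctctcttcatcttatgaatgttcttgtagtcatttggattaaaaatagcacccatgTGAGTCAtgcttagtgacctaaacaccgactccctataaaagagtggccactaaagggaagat
Mmp8, chr9:7558309-7558428: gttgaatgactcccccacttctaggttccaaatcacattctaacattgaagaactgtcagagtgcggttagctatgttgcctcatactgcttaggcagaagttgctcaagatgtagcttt
The first base of the AP-1 sequence lay at position -35 in Mmp13, -44 in Mmp12, -46 in Mmp3 and -63 in Mmp10, counted from the annotated start, and the stretch of Mmp8 held none. In Mmp13 the sequence reads TGACTCA, which is TGAGTCA on the other strand.

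Setting CAF beside normal fibroblasts grown alike shows whether genes of this protease system differ in expression between them. None of the 65 members passed the limma test at an adjusted p under 0.05, a threshold that 0.753% of all genes tested passed. At an unadjusted p under 0.05 there were 9 members (13.8%), 3 with a positive and 6 with a negative difference, whereas 22.3% of all genes had such a p. The exact Wilcoxon test called 0 of all genes, so its 0 members (7 at an unadjusted p under 0.05) says nothing of them in particular. With other processing limma called 1 member after quantile normalisation, 1 after median centring, 2 with the mean of a gene's probe sets, 1 with its most variable probe set and 3 with array weights: Adam4 in each, Adamts16 in 2 and Mmp13 in 1. Of all 18193 genes these 5 settings called 92, 285, 168, 235 and 1597, in the same order. Each fit that left out 1 array called 0 members, and of these 10 fits 4 called 0 and 1 called 1 of all genes. The median difference was -0.09 over the 65 members and -0.04 over all genes, and 35.4% of the members and 42.7% of all genes had a positive difference. The values of the 5 CAF and the 5 normal arrays did not overlap in 4 members (6.15%), and in 7.16% of all genes. Values were higher in CAF in 1 of the 4, Mmp13 (1.54% of members, 2.97% of all genes), and lower in 3, Adam4, Adamts16 and Adamts19 (4.62% of members, 4.19% of all genes). An adjusted p up to 0.1 was reached by 2 members, Adam4 and Adamts16 (3.08%), and by 6.39% of all genes.

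The members split by signal. A mean above the median of all genes was reached by 30 members, 12 MMP, 8 ADAM, 7 ADAMTS and 3 TIMP genes, of which 15 had a positive and 15 a negative difference (all genes above the median level: 60.6% positive). The 35 dimmer members had 8 positive and 27 negative differences, 22.9% positive, and all genes at or below the median level had 24.9% positive. The deposited values carry no detection call, so the level of a dim member may be background. A mean difference of at least 2-fold with the higher value in CAF was seen in 4 members (6.15%), Mmp8, Mmp10, Mmp12 and Mmp13, and in 1.64% of all genes. In the other direction it was seen in 1 member, Mmp9 (1.54%), and in 0.561% of all genes. None of these 5 passed the test. The plot of differences with their intervals shows the 30 brighter members; intervals here are 95% intervals of the single difference, from the moderated standard error and not adjusted for the number of genes.

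**Figure D1:**
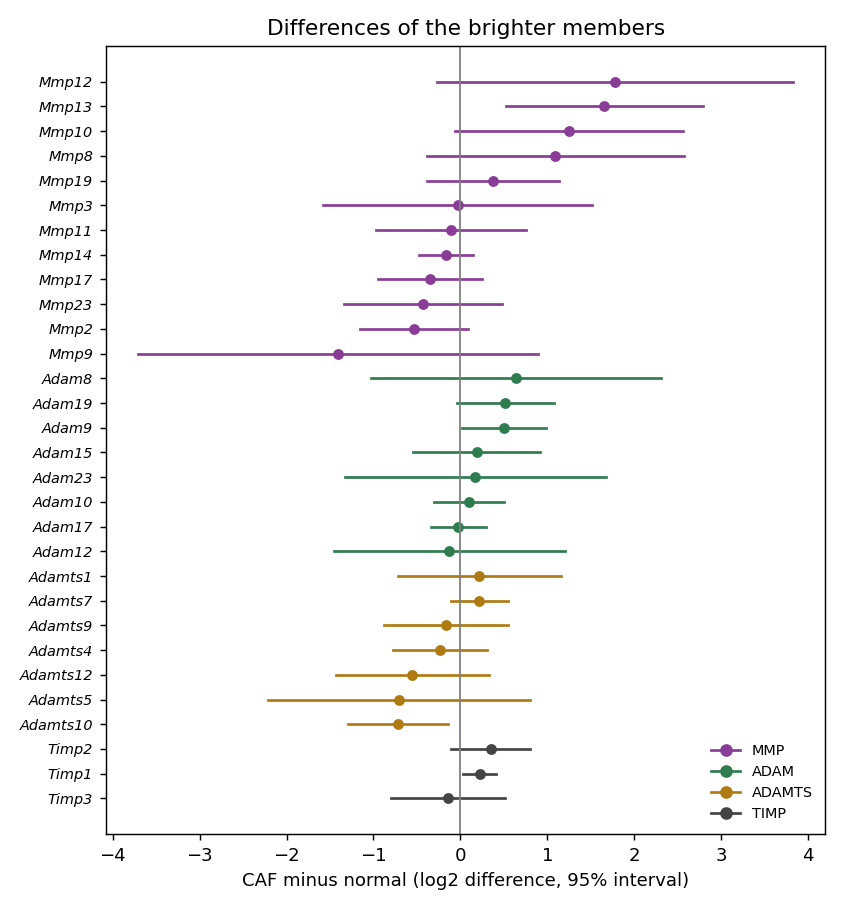
CAF minus normal difference (x axis, log2) with its 95% interval for the 30 members with a mean above the median of all genes, coloured by family and ordered within each family; points are limma estimates from 5 CAF and 5 normal arrays. Mmp12, Mmp13, Mmp10 and Mmp8 lie farthest to the right, Mmp9 farthest to the left with the widest interval, and the intervals of Mmp13, Adam9, Adamts10 and Timp1 do not include 0.

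Mmp13, the main interstitial collagenase of rodents, which cuts fibrillar collagen, was the brighter member with the smallest p. Its levels on normal replicates 1 to 5 were 7.84, 10.41, 9.70, 10.51 and 9.66, and on CAF replicates 1 to 5 they were 11.38, 10.57, 12.29, 11.10 and 11.07. The lowest CAF array lay just above the highest normal array, and normal replicate 1 was far below the rest. The group means were 9.62 ± 1.07 in normal and 11.28 ± 0.64 in CAF (SD, n = 5 each), a difference of 1.66 ± 0.51 (± SE; 95% interval 0.53 to 2.79; limma adjusted p = 0.111). The difference was 1.20 when set against the ls normal arrays and 1.96 against those of vs. Without normal replicate 1 it was 1.21. Mmp13 passed the test (adjusted p = 0.0492) under 1 of the alternatives, limma with array weights; over all alternatives its adjusted p ran from 0.0492 to 0.399. The fit with array weights called 1597 of all genes, against 137 in the main fit.

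Mmp10, stromelysin-2, cuts proteoglycans and fibronectin and activates other MMP precursors. Its normal levels were 9.84, 8.73, 11.86, 11.87 and 10.72, and its CAF levels 12.27, 11.95, 12.40, 11.17 and 11.46. The CAF arrays spread over 1.23 and the normal arrays over 3.14 log2 units, with normal replicates 3 and 4 inside the CAF range. The difference was 1.25 ± 0.59 (interval -0.07 to 2.56, adjusted p = 0.244), 0.56 when set against the ls normal arrays and 1.71 against those of vs.

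Mmp8, a collagenase best known from neutrophils, had normal levels of 8.08, 10.27, 10.08, 8.0 and 7.27 and CAF levels of 9.71, 9.03, 11.39, 9.36 and 9.67. CAF replicate 3 was the highest array, and normal replicates 2 and 3 lay above 4 of the 5 CAF arrays. The difference was 1.09 ± 0.66 (interval -0.38 to 2.57, adjusted p = 0.352). It was 2.20 against the ls normal arrays, both of which lay below every CAF array, and 0.35 against the vs arrays. CAF replicate 3 also had the highest level of Mmp13 and Mmp10.

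Mmp12, macrophage elastase, had the largest difference of the 65 members, 1.77 ± 0.92, with an interval of -0.27 to 3.82 and an adjusted p of 0.282. It was 1.29 when set against the ls normal arrays and 2.09 against those of vs. Its normal levels were 6.23, 6.64, 9.54, 8.80 and 7.74 and its CAF levels 7.86, 9.29, 8.98, 12.58 and 9.12. The value of CAF replicate 4 lay over 3 log2 units above every other CAF array; without it the difference was 1.02. The macrophage marker mean of CAF replicate 4, 11.30, was the third highest of the 5 CAF arrays. Mmp3, stromelysin-1, lies between Mmp1b and Mmp1a in the cluster and had normal levels of 9.90, 13.70, 10.03, 11.28 and 10.99 against CAF levels of 11.51, 10.24, 10.65, 12.20 and 11.15. Normal replicate 2 was the highest of all 10 arrays, normal replicates 1 and 3 lay below every CAF array, and replicates 4 and 5 lay within the CAF range. Its difference was -0.03 ± 0.69 (adjusted p = 0.983), but the interval, -1.58 to 1.52, leaves room for a change of more than 2-fold in either direction, and without normal replicate 2 the difference was 0.60. Against the ls normal arrays it was 0.013 and against those of vs -0.061.

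The 4 other measured cluster genes were dim on every array. Mmp1a and Mmp1b, the rodent counterparts of human interstitial collagenase, had means over the 10 arrays of 4.58 and 5.03, and Mmp20, an enamel protease, and Mmp7, matrilysin of epithelia, had 5.17 and 6.76. Their differences lay between -0.13 and 0.12. Among the 5 brighter cluster genes the differences ran from -0.03 to 1.77. The cluster was singled out for its large differences, and these values only describe it.

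**Figure D2:**
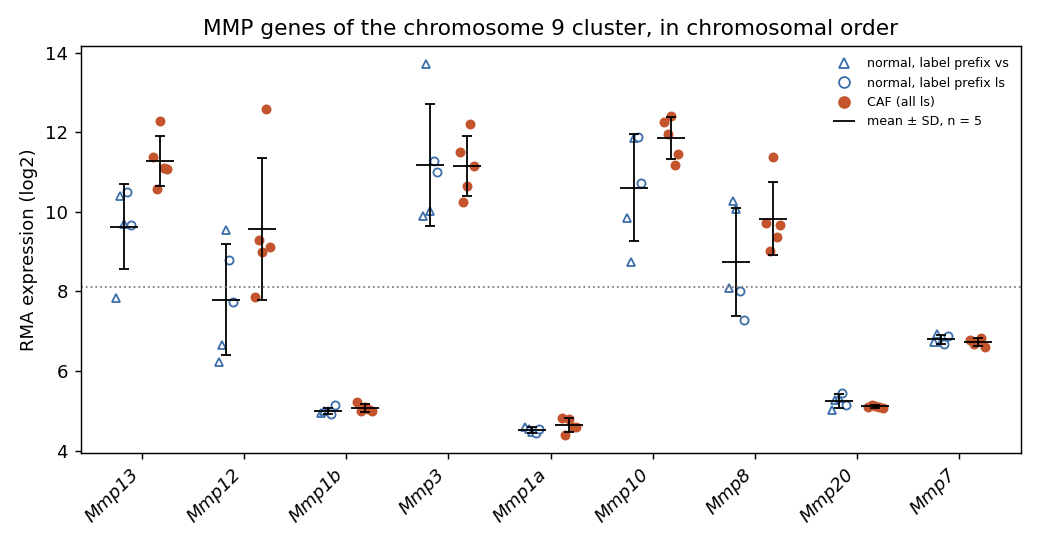
RMA log2 level (y axis) on each array for the 9 measured MMP genes of the chromosome 9 cluster, in chromosomal order from left to right; open symbols are normal arrays (triangles, prefix vs; circles, prefix ls), filled circles CAF arrays, bars mean ± SD (n = 5) and the dotted line the median level of all genes (8.11). Mmp13 is the gene whose CAF and normal points do not overlap, the single high CAF point of Mmp12 is replicate 4, and Mmp1b, Mmp1a, Mmp20 and Mmp7 lie below the dotted line.

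The gelatinases, Mmp2 and Mmp9, cut denatured collagen and basement membrane collagen and both had negative differences. Mmp2, which fibroblasts make constitutively, had normal levels of 14.10, 14.24, 13.02, 13.11 and 13.15 and CAF levels of 13.25, 13.39, 12.57, 12.94 and 12.80. Normal replicates 1 and 2 were the highest arrays, and the other 3 normal arrays lay within the CAF range. The difference was -0.53 ± 0.28 (interval -1.16 to 0.09, adjusted p = 0.286), -0.14 when set against the ls normal arrays and -0.80 against those of vs, and the other probe set of Mmp2 differed by -0.56 ± 0.28.

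Mmp9 varied more between arrays than any other member within the normal group, over 5.22 log2 units. Its normal levels were 9.88, 6.92, 12.14, 10.84 and 8.89 and its CAF levels 8.72, 10.37, 6.16, 8.87 and 7.51. The highest was normal replicate 3, the array on which the neutrophil marker mean was 11.18, and the lowest was CAF replicate 3. The difference was -1.41 ± 1.03 (interval -3.70 to 0.89, adjusted p = 0.439), and its other probe set gave -1.40 ± 0.89. Without normal replicate 3 the difference of Mmp9 was -0.81, and without normal replicate 2 it was -2.11. The part of neutrophil or macrophage RNA in the levels of Mmp8, Mmp9, Mmp12 and Adam8 was not tested.

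The panels of these genes by array show the marker means beside them. The macrophage marker means on normal replicates 1 to 5 were 12.99, 9.52, 12.22, 11.09 and 10.16 and on CAF replicates 1 to 5 12.97, 11.07, 10.45, 11.30 and 12.31. Adam8, an ADAM of myeloid cells, had normal levels of 12.66, 8.70, 11.41, 10.93 and 9.83 and CAF levels of 12.62, 11.14, 9.77, 11.35 and 11.83. The arrays highest and lowest for the macrophage markers in each group, normal replicates 1 and 2 and CAF replicates 1 and 3, were also the highest and lowest for Adam8, and within each group the arrays ranked in the same order for Adam8 as for the marker mean. The difference of Adam8 was 0.64 ± 0.75 (interval -1.03 to 2.31, adjusted p = 0.638), 0.97 when set against the ls normal arrays and 0.42 against those of vs. It was 1.13 without normal replicate 1 and 0.14 without normal replicate 2. Of the macrophage markers, 11 of 12 had a positive difference (median 0.41), with 0 of them called by limma.

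**Figure D3:**
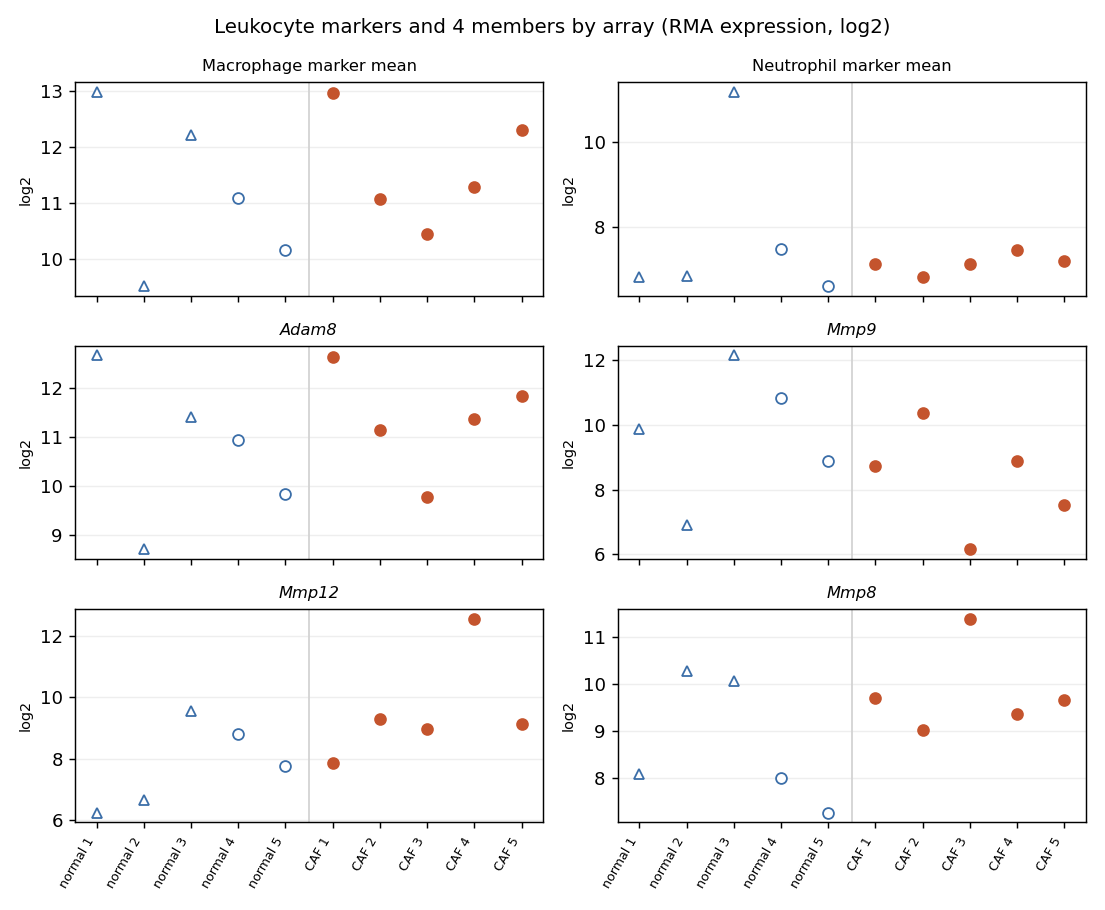
RMA log2 values (y axis) on each of the 10 arrays (x axis; open symbols normal, triangles prefix vs and circles prefix ls; filled circles CAF) for the mean of 12 macrophage markers, the mean of 7 neutrophil markers, and Adam8, Mmp9, Mmp12 and Mmp8; each panel has its own scale, which does not start at 0. Normal replicate 3 stands alone in the neutrophil panel at 11.18, and within each group Adam8 ranks the arrays in the order of the macrophage panel.

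Membrane-type MMPs had negative differences in all 4 measured members. Mmp14, the main pericellular collagenase and the activator of the Mmp2 precursor, had normal levels of 13.74, 13.92, 13.38, 13.53 and 14.08 and CAF levels of 13.37, 13.80, 13.58, 13.55 and 13.53. The groups overlapped across most of their range and the spread was small in both. The difference was -0.16 ± 0.14 (interval -0.47 to 0.14, adjusted p = 0.503), an interval that holds no 2-fold difference, and its 2 other probe sets had -0.21 ± 0.16 and -0.37 ± 0.14. Mmp17, held in the membrane by a lipid anchor, had -0.35 ± 0.27 (adjusted p = 0.461). The dimmer Mmp16 and Mmp24 had -0.41 ± 0.26 and -0.09 ± 0.08.

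Among the other MMPs, Mmp11, stromelysin-3, is activated inside the cell and is known from the stroma of carcinomas. Its normal levels were 9.37, 9.73, 7.74, 7.75 and 8.15 and its CAF levels 8.60, 8.33, 8.38, 8.46 and 8.45. The 5 CAF arrays lay within 0.27 log2 units, between normal replicates 1 and 2 on one side and replicates 3, 4 and 5 on the other. The difference was -0.11 ± 0.39 (adjusted p = 0.891); it was 0.49 when set against the ls normal arrays and -0.51 against those of vs, so its sign depends on the normal arrays taken. Mmp19, a widely expressed basement membrane protease, had 0.38 ± 0.34 (adjusted p = 0.535), and its other probe set, of nearly the same mean, 0.06 ± 0.23. Mmp23, a membrane-linked member that lacks the usual C-terminal domain, had -0.43 ± 0.41 (adjusted p = 0.551).

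The inhibitors Timp1, Timp2 and Timp3 gave strong signals on every array, and Timp4 a weak one. Timp1, the inducible inhibitor, had normal levels of 14.80, 14.80, 14.76, 15.11 and 15.08 and CAF levels of 15.17, 15.09, 15.07, 15.21 and 15.14, near the top of the table's scale, which ended at 15.5. The 3 vs normal arrays lay below every CAF array, and the 2 ls normal arrays were inside the CAF range. The difference was 0.23 ± 0.08 (interval 0.04 to 0.41, unadjusted p = 0.0246, limma adjusted p = 0.164), 0.04 when set against the ls normal arrays and 0.35 against those of vs.

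Timp2, which also helps Mmp14 to activate the Mmp2 precursor, had normal levels of 14.66, 14.70, 13.64, 13.89 and 14.10 and CAF levels of 14.61, 14.35, 14.67, 14.57 and 14.53. Normal replicates 1 and 2 were as high as the CAF arrays, and the other 3 lay below all of them. The difference was 0.35 ± 0.20 (interval -0.10 to 0.80, adjusted p = 0.333), 0.55 when set against the ls normal arrays and 0.21 against those of vs, and its 5 other probe sets had positive differences of 0.04 to 0.54. Timp3, the matrix-bound inhibitor, had a difference of -0.15 ± 0.29 (interval -0.80 to 0.51, adjusted p = 0.797), with all 3 other probe sets between -0.23 and -0.21. Timp4 had -0.09 ± 0.06 at a mean of 5.64.

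**Figure D4:**
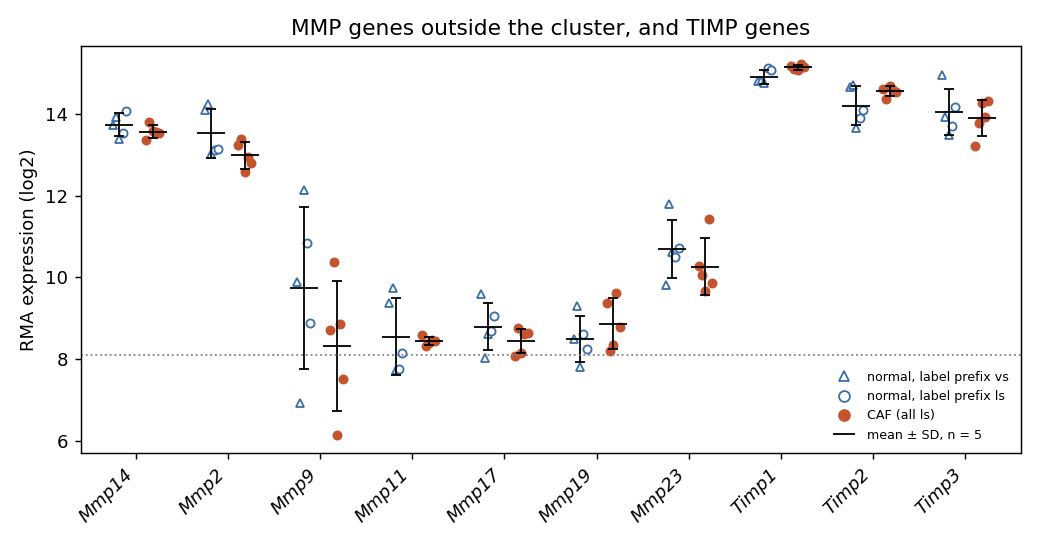
RMA log2 level (y axis) on each array for the 7 brighter MMP genes outside the chromosome 9 cluster and for Timp1, Timp2 and Timp3; symbols as open triangles (normal, prefix vs), open circles (normal, prefix ls) and filled circles (CAF), bars mean ± SD (n = 5), dotted line the median level of all genes (8.11). Of these genes Mmp9 has the widest spread in both groups, and the CAF points of Mmp11, Timp1 and Timp2 lie closer together than the normal points.

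Of the 9 ADAMs with a working protease domain outside the testis (Adam8, Adam9, Adam10, Adam12, Adam15, Adam17, Adam19, Adam28 and Adam33, grouped from general knowledge), 6 had a positive difference and 0 passed, with a median of 0.10. Adam9, a widely expressed sheddase, had normal levels of 13.60, 13.22, 12.37, 12.87 and 13.55 and CAF levels of 13.45, 13.68, 13.60, 13.67 and 13.71. The CAF arrays lay within 0.26 log2 units, and normal replicates 1 and 5 lay among them. The difference was 0.50 ± 0.22 (interval 0.02 to 0.98, unadjusted p = 0.0442, limma adjusted p = 0.210). Adam19, known for cutting neuregulins, had normal levels of 11.86, 12.83, 11.43, 12.37 and 12.67 and CAF levels of 12.71, 13.04, 12.70, 12.79 and 12.51. Normal replicates 1, 3 and 4 lay below every CAF array, and replicates 2 and 5 among them. Its difference was 0.52 ± 0.25 (interval -0.04 to 1.08, adjusted p = 0.257), 0.23 when set against the ls normal arrays and 0.71 against those of vs, and its other probe set had 0.51 ± 0.28.

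Adam10 and Adam17, the main sheddases of Notch and of EGF receptor ligands and tumour necrosis factor, had differences near 0 with narrow intervals. Adam10 had 12.03 ± 0.37 in normal and 12.13 ± 0.22 in CAF (SD, n = 5 each), a difference of 0.10 ± 0.18 (interval -0.30 to 0.50, adjusted p = 0.779). Adam17 had 10.43 ± 0.26 and 10.40 ± 0.21, a difference of -0.03 ± 0.14 (interval -0.34 to 0.29, adjusted p = 0.931). Neither interval holds a 2-fold difference. Adam17 differed by 0.26 from the ls normal arrays and by -0.21 from those of vs.

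Adam12, an ADAM of developing mesenchyme that is induced in remodelling tissue, had normal levels of 9.41, 11.61, 11.81, 12.29 and 11.87 and CAF levels of 12, 12.21, 10.36, 11.52 and 10.25. Normal replicate 1 was the lowest array, and CAF replicates 3 and 5 formed a low pair apart from the other 3. The difference was -0.13 ± 0.59 (interval -1.46 to 1.20, adjusted p = 0.916), -0.81 when set against the ls normal arrays and 0.33 against those of vs. Adam15, which carries an integrin-binding site, had 0.19 ± 0.33 (adjusted p = 0.760), with its 3 other probe sets between 0.16 and 0.29; it differed by 0.75 when set against the ls normal arrays and -0.19 against those of vs. Adam28 and Adam33 were dim, with differences of 0.05 and -0.24.

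The ADAMs without an active site that serve mainly in nerve cells, Adam11, Adam22 and Adam23, had differences of -0.15 ± 0.07, -0.67 ± 0.33 and 0.17 ± 0.67, with adjusted p-values of 0.219, 0.262 and 0.900. Adam22 was highest on normal replicate 1 (9.08, with 8.06 next), and its other, dimmer probe set had -0.35 ± 0.09 (limma adjusted p = 0.0808 over all probe sets). Adam23 was the only bright one of the 3 and ran from 7.36 on normal replicate 3 to 10.94 on CAF replicate 4. The 16 remaining ADAMs, most of them known from testis or sperm, all lay below the median level of all genes, with means of 4.33 to 7.79, and 12 of their 16 differences were negative. Adam4 had the smallest p of the 65 members. Its normal levels were 8.12, 8.15, 8.02, 7.93 and 8.0 and its CAF levels 7.41, 7.50, 7.81, 7.67 and 7.32, with no overlap between the groups. The difference was -0.50 ± 0.10 (interval -0.72 to -0.28, limma adjusted p = 0.0534), -0.42 when set against the ls normal arrays and -0.56 against those of vs. It passed under 5 alternatives with adjusted p-values of 0.0320 to 0.0483. Those alternatives called from 92 to 1597 of all genes. With the 34945 probe sets tested singly, limma called 1 of the 116 member probe sets, that of Adam4 (adjusted p = 0.0470). How many of all these probe sets passed was not counted, so this call has no share over all probe sets beside it. The mean level of Adam4, 7.79, was below the median of all genes. Of the genes there, 24.9% had a positive difference.

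**Figure D5:**
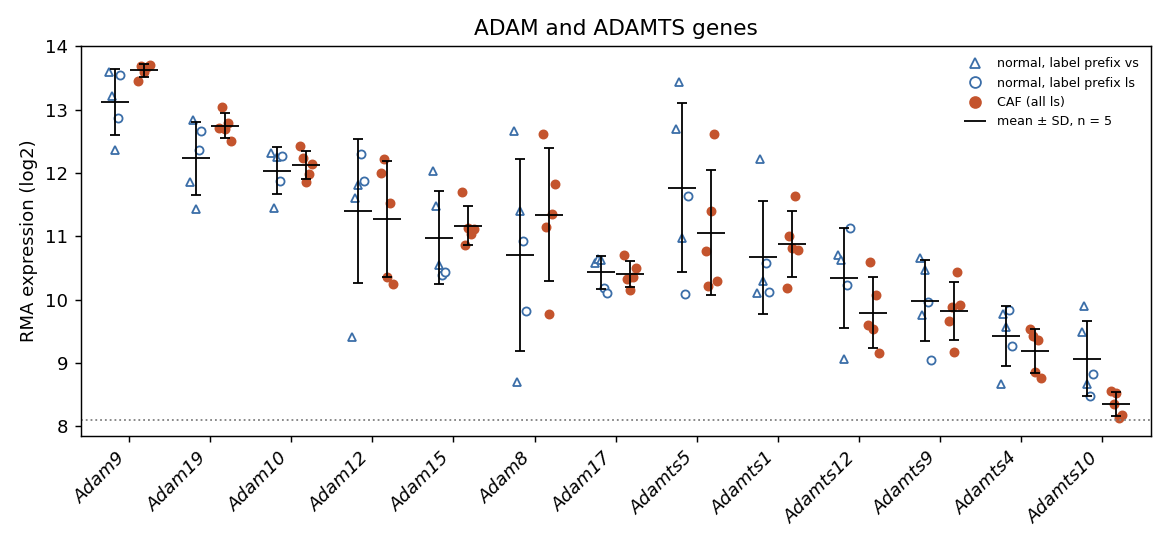
RMA log2 level (y axis) on each array for 7 ADAM and 6 ADAMTS genes with a mean above the median of all genes (dotted line, 8.11); open triangles are normal arrays with prefix vs, open circles normal arrays with prefix ls, filled circles CAF arrays, bars mean ± SD (n = 5). All genes overlap between the groups; the low normal point of Adam12 is replicate 1 and the high normal points of Adamts1 and Adamts5 are replicate 2.

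ADAMTS genes had 3 positive and 12 negative differences (20% positive, against 42.7% of all genes) and a median of -0.19. The largest in size was that of Adamts6, dim at a mean of 7.93, with 0.82 ± 0.49 (limma adjusted p = 0.350). Over the 7 brighter ADAMTS genes the median was 0.20 against the ls normal arrays and -0.33 against those of vs. The 7 proteoglycan-cutting members, Adamts1, Adamts4, Adamts5, Adamts8, Adamts9, Adamts15 and Adamts20, had 1 positive and 6 negative differences, and 0 passed. Adamts5, the main aggrecan-cutting member in the mouse, had normal levels of 12.69, 13.44, 10.97, 10.09 and 11.64 and CAF levels of 10.78, 10.22, 11.40, 12.61 and 10.29. Normal replicates 1 and 2 and CAF replicate 4 were high, and the groups overlapped. The difference was -0.70 ± 0.67 (interval -2.21 to 0.80, adjusted p = 0.559); it was 0.20 when set against the ls normal arrays and -1.31 against those of vs.

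Adamts1, a versican-cutting member, had 0.22 ± 0.42 (interval -0.72 to 1.16, adjusted p = 0.788), with the highest levels on normal replicate 2 (12.23) and CAF replicate 4 (11.64). Without these arrays in turn it was 0.61 and 0.028, and it was 0.53 when set against the ls normal arrays and 0.0052 against those of vs. Adamts4 had -0.24 ± 0.24 (adjusted p = 0.592) and Adamts9, also versican-cutting, -0.17 ± 0.32 (adjusted p = 0.788). A further probe set of Adamts9 above the median level had 0.39 ± 0.44, and the difference was 0.31 from the ls normal arrays and -0.48 from those of vs. Normal replicate 2 and CAF replicate 4 were the highest arrays of their groups in 6 of the 30 brighter members (20%), Mmp3, Mmp19, Mmp23, Adam23, Adamts1 and Adamts5, and in 6.96% of all genes above the median level. These arrays had the lowest mesothelial marker mean of their groups, 6.01 and 7.06, and also the lowest epithelial marker mean, 6.67 and 6.38. This pattern was picked out after the values were seen, and the part of other cell types in it was not tested.

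Adamts10, which binds fibrillin microfibrils, had the smallest p of the brighter ADAMTS genes. Its normal levels were 9.48, 9.90, 8.66, 8.48 and 8.82 and its CAF levels 8.56, 8.36, 8.53, 8.13 and 8.18. Normal replicates 1 and 2 were the highest and only normal replicate 4 lay within the CAF range. The difference was -0.72 ± 0.26 (interval -1.29 to -0.14, unadjusted p = 0.0201, limma adjusted p = 0.15), -0.30 when set against the ls normal arrays and -0.99 against those of vs. Adamts12, which cuts the cartilage protein COMP, had -0.55 ± 0.39 (interval -1.43 to 0.33, adjusted p = 0.427), -0.88 from the ls normal arrays and -0.33 from those of vs, while its other, dim probe set had 0.09 ± 0.05. Adamts3, a procollagen N-proteinase, was dim and had -0.25 ± 0.13. The dim Adamts16 had normal levels of 7.61, 7.67, 7.49, 7.67 and 7.55 and CAF levels of 7.43, 7.28, 7.40, 7.21 and 7.32. The groups did not overlap, and its difference was -0.27 ± 0.06 (adjusted p = 0.0724), with -0.28 ± 0.08 in its other probe set.

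Spread between cultures was wide for the brighter members. A range of at least 2 log2 units over the 5 normal arrays was seen in 12 of the 30 (40%), and in 11.3% of all genes above the median level; over the 5 CAF arrays it was seen in 6 of 30 (20%) and in 5% of such genes. Over all 65 members these counts were 14 (21.5%, against 7.61% of all genes) and 6 (9.23%, against 3.62%). The 6 were Mmp8, Mmp9, Mmp12, Adam8, Adam23 and Adamts5. The SD was larger in the normal group in 26 of the 30 (86.7%), and in 84.6% of all genes above the median level; over all 65 it was 48 (73.8%, against 71.1% of all genes). The exceptions among the 30 were Mmp12, Mmp19, Adam23 and Adamts7. The sign of the difference depended on whether the ls or the vs normal arrays were taken in 7 of the 30. Among all genes above the median level it did so in 3224 of 9096. Over all 65 members it did so in 11 (16.9%, against 28.7% of all genes).

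Other genes of the pathway were taken from 3 lists, to be read beside the shares over all genes: 0.753% passed, 22.3% had an unadjusted p under 0.05 and 42.7% a positive difference. The positive share was 60.6% of genes above the median level and 24.9% of those at or below it. In the order below, 15 of 24, 23 of 34 and 20 of 32 measured list genes lay above that level. Of 24 measured activators, surface partners and other inhibitors, 0 passed limma's test (5 at an unadjusted p under 0.05), and 17 had a positive and 7 a negative difference (median 0.20). The smallest p belonged to Cd44, the hyaluronan receptor that holds Mmp9 at the surface, with 0.85 ± 0.23 (adjusted p = 0.0887), 0.43 from the ls normal arrays and 1.13 from those of vs. Pcsk5, a proprotein convertase, followed with 2.34 ± 0.71 (adjusted p = 0.109) and Plau, the urokinase that makes plasmin, with 0.84 ± 0.31 (adjusted p = 0.160). In the other direction, A2m, a broad protease trap, had -0.31 ± 0.12 (adjusted p = 0.182).

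Of 34 measured ADAM partners and shed substrates, 1 rose and 0 fell (10 at an unadjusted p under 0.05), 22 had a positive difference and the median was 0.12. Ereg, an EGF receptor ligand released by Adam17, rose from 11.68 ± 0.85 to 13.58 ± 0.19 (SD, n = 5; difference 1.89 ± 0.35, limma adjusted p = 0.0484), by 1.09 over the ls normal arrays and 2.43 over those of vs. No gene passed, Ereg included, by the exact Wilcoxon test, in limma with the label prefix as a term, or when normal replicate 3 or any of CAF replicates 1, 3 and 5 was left out. Tspan15, a tetraspanin that carries Adam10 to the surface, had -0.30 ± 0.10 (adjusted p = 0.120). Of 32 measured matrix substrates and ADAMTS-like proteins, 0 passed limma's test (7 at an unadjusted p under 0.05), 16 had a positive and 16 a negative difference, and the median was 0.00. Eln, elastin, which Mmp12 can cut, had -0.46 ± 0.10 (adjusted p = 0.0598) at a level below the median of all genes and without overlap between groups. Tnc, tenascin, had 1.45 ± 0.50 (adjusted p = 0.138) and Adamtsl2, an ADAMTS-like matrix protein, -0.33 ± 0.11 (adjusted p = 0.141).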

How the data were processed

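RNA of 5 normal and 5 CAF cultures was hybridised, 1 culture per Affymetrix whole-genome mouse array, from 6 ug of total RNA per the labels' protocols. The deposited values are on a log2 scale, by their range; the submitters' processing notes name RMA, Expression Console and limma without their roles, and the values are called RMA values on that basis. Versions are not given in the sources used here, nor are detection calls, and the number of arrays limits the precision. Of 45101 probe sets, 64 controls were left out, 34945 had 1 gene symbol in the platform annotation, 932 several and 9160 none listed. For 34741 of the 34945 the symbol was taken from RefSeq (GRCm38.p6) by Entrez identifier, whether or not it changed. No probe set was normalised again. The probe set with the highest mean stood for a gene (18193 genes), and limma 3.58.1 (lmFit, eBayes; R 4.3.3) compared the groups with Benjamini-Hochberg adjustment over all genes at 0.05. The script was tested on simulated data. Levels of different probe sets are not an order of abundance.

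Members, lists and tests were chosen with earlier results of these data known. Members named were the 8 largest positive and negative differences above the median level, the 3 brightest of each family and a list of well-known members, of which Adamts2 is not analysed here. Adam4, Adam11, Adam22, Adam23, Adam28, Adam33, Adamts3, Adamts6, Adamts7, Adamts9, Adamts16, Adamts19, Mmp16, Mmp24 and the dim cluster genes were added after their values were seen. ADAMs were grouped by general knowledge, as no protein sequences were used here. Promoter windows are RefSeq's (GRCm38.p6). Equal replicate numbers did not pair the arrays (correlation of deviations -0.53 to 0.34 over 5 numbers). Alternatives covered scaling, probe set choice, filter, variance model, an exact Wilcoxon test, label prefix, replicate block and leaving out each array.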

Additional observations from a re-analysis of the deposited data

Results flagged for a closer look

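Each of the 6 values below lay apart from the 4 other arrays of its group, with a gap to the nearest array above 0.71 of the group's range. Chance flags about 1 in 20 groups, and here it was 6 of 130 groups tested (4.62%). Adam12 had 9.41 on normal replicate 1, with 11.61 on the nearest normal array. Adam23 had 10.94 on CAF replicate 4, with 8.91 next. Adamts1 had 12.23 on normal replicate 2, with 10.57 next. Adamts15, a dim proteoglycan-cutting member, had 8.55 on normal replicate 2, with 6.01 next. Adamts20, also dim, had 5.7 on normal replicate 1, with 4.8 next. Mmp16, a membrane-type MMP, had 9.17 on normal replicate 2, with 7.92 next.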

How the results depend on the processing

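Of 28 named members, 20 kept the sign of their difference under every alternative that gave them a value. limma called 0 members in all 10 fits without 1 array, 1 after quantile normalisation, 1 after median centring, 2 with the mean of all probe sets, 1 with the most variable probe set and 3 with array weights (Adam4 in each; Adamts16 also with the mean and the weights; Mmp13 also with the weights). Over all genes 137 were called (102 higher and 35 lower in CAF), 92 after quantile normalisation (43 higher, 49 lower), 285 after median centring (250 higher, 35 lower), 50 with genes above the median level alone, 235 with the most variable probe set, 46 with a trended robust prior, 1597 with array weights, 0 by the exact Wilcoxon test (3190 at an unadjusted p under 0.05), 0 with the label prefix as a term (2649), 1 against the ls normal arrays, and 0 to 166 without 1 array. That count was 0 without normal replicate 3 or CAF replicate 1, 3 or 5, 1 without CAF replicate 4, and 24, 63 and 46 without normal replicates 1, 4 and 5. The fit on the mean of all probe sets called 168 genes. With the replicate number as a block, 0 members and 0 genes were called (8 and 3017 at an unadjusted p under 0.05); the numbers do not pair the arrays, and 2 of 10 arrays correlated best with their own number. The difference turned positive for Adam17 with median centring (0.016), the mean of probe sets (0.061), the most variable probe set (0.20), array weights (0.14), the prefix term (0.26) and the ls arrays (0.26). It did so for Mmp3 with median centring (0.010), array weights (0.22), the prefix term (0.013) and the ls arrays (0.013), for Mmp11 with array weights (0.26), the prefix term (0.49) and the ls arrays (0.49), for Adamts5 with the prefix term and the ls arrays (0.20 in both) and for Adam12 against the vs arrays (0.33); Adam15 turned negative there (-0.19). Leaving out 1 array gave ranges that include 0 for Adam10 (-0.049 to 0.17), Adam12 (-0.63 to 0.13), Adam17 (-0.11 to 0.039), Mmp3 (-0.35 to 0.60), Mmp11 (-0.31 to 0.19) and Timp3 (-0.28 to 0.081). With the sign kept, leaving out 1 array moved the difference by over 1.5 times for Mmp2 (-0.66 to -0.36), Mmp8 (0.70 to 1.47), Mmp9 (-2.11 to -0.81), Mmp10 (0.78 to 1.56), Mmp12 (1.02 to 2.21), Mmp14 (-0.25 to -0.077), Mmp17 (-0.54 to -0.15), Mmp19 (0.19 to 0.58), Mmp23 (-0.73 to -0.16), Timp2 (0.21 to 0.47), Adam8 (0.14 to 1.13), Adam9 (0.31 to 0.62), Adam15 (0.043 to 0.45), Adam19 (0.32 to 0.67), Adamts1 (0.028 to 0.61), Adamts4 (-0.42 to -0.13), Adamts5 (-1.12 to -0.29) and Adamts12 (-0.88 to -0.36). The cause of these shifts was not tested. Timp4 had no value with genes above the median level alone. With 5 arrays a group, wide intervals limit what can be said of Mmp3, Mmp8, Mmp9, Mmp12, Adam8 and Adamts5, and dim members may be at background.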
